A study of Mus musculus with 15 samples.

Results

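The comparison of Ang II vs. Control covered 10 of the 15 mice whose renal RNA was sequenced, 5 Control mice and 5 Ang II mice, and described them at the level of genes. The mice were wild-type (WT) male C57BL/6 animals, 8 weeks old when bought, with no engineered allele in any group. Ang II mice carried a subcutaneous osmotic pump that delivered angiotensin II (Ang II) at 500 ng/kg/min for 28 days, and Control mice received saline for the same time. Both groups were gavaged with double-distilled water, the vehicle of Qingda granule (QDG), a herbal formula that 5 further Ang II-infused mice received at 1.145 g/kg/day. Those Ang II + QDG mice entered the model only to help estimate the spread, and their values are given as description. Bulk RNA of renal tissue was profiled, with no region of the kidney given in the sources used here, so fewer cells of a type and less RNA per cell cannot be told apart.

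The members were the 10 mice and, in each, the 12359 genes that passed a filter, out of 13923 gene symbols that had at least 1 annotated transcript in all 15 libraries. A gene's level was the sum of the values of its annotated transcripts, in FPKM (fragments scaled to transcript length and library size), and a gene was kept when its sum reached 1 FPKM in at least 5 of the 15 mice. Differences are given as log2 fold changes of (sum + 1), Ang II minus Control, with the standard error (SE) and the Benjamini-Hochberg adjusted p of limma's moderated test over all 12359 genes. A gene is said to have risen or fallen, or is called, where that adjusted p was under 0.05. A gene high in 1 group alone could pass the filter through that group. The added 1 makes the fold changes of genes at low FPKM smaller. The unit is named by neither the labels nor the study's methods and was taken from the values, 98.6% to 98.7% of which became whole read numbers (within 0.05) when multiplied by transcript length. The step size implied 70676373 to 81320647 reads or fragments per mouse in these 10 libraries, so that 1 FPKM over 1 kb stood for 70.7 to 81.3 reads. Between 88.1% and 90.4% of the FPKM of the shared transcripts lay in annotated transcripts. The remainder lay in transcripts that the authors assembled, which have no gene name and are in no gene sum. Gapdh, a glycolytic enzyme that every cell uses, was listed at only 0.126 to 5.86 FPKM in these mice, and whether reads of such genes were assigned to unnamed transcripts was not tested.

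Ang II is the effector peptide of the renin–angiotensin system. Through the type 1 receptor it narrows blood vessels, raises aldosterone and increases tubular sodium uptake, and long infusion in mice is a standard model of hypertension with injury of glomeruli, tubules and vessels. The question addressed here is which genes and functions of the kidney moved with the infusion when all annotated transcripts of a gene were summed.

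Markers that define the kidney were present. The summed level of 5 proximal tubule markers (Slc34a1, Lrp2, Slc5a2, Slc22a6, Slc13a3) was 2874 to 2973 FPKM in Control and 2991 to 4194 FPKM in Ang II, without overlap. None of these 5 was called. The listed podocyte markers summed to 76.6 to 85.7 FPKM in Control and 103 to 130 FPKM in Ang II, so these groups did not overlap. The intercalated cell sums did not overlap either (39.4 to 45.1 and 47.0 to 68.1 FPKM). The thick ascending limb sums overlapped, at 993 to 1353 FPKM in Control and 713 to 1227 FPKM in Ang II (median log2 fold change −0.39). Sums for distal convoluted tubule, principal cells, endothelium, smooth muscle and pericytes, leukocytes and red cells also overlapped. Markers of neighbouring tissues were also examined. The 3 liver markers summed to 46.6 to 56.8 FPKM in Control and 33.2 to 45.0 FPKM in Ang II, without overlap. None of 4 skeletal muscle markers and none of 2 B cell markers was listed in all libraries, and of 5 adrenal markers only Star was, at 0.692 to 1.16 FPKM. Ucp1, a brown fat gene, was high in single mice (37.4 FPKM in Control mouse 2 and 57.6 FPKM in Ang II mouse 1) and 0 to 12.5 FPKM in the other 8. Lpl, a lipase abundant in fat, ranged from 111 to 188 FPKM in Control and from 105 to 218 FPKM in Ang II.

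Of the 12359 genes, 612 rose and 123 fell in Ang II, which is 4.95% and 0.995% of those tested and 5.95% together. At the threshold used in the study (at least 2-fold, with p under 0.05 before adjustment), 81 genes were higher and 48 lower, 0.655% and 0.388% of those tested. In 803 genes (6.50%) every Ang II mouse was above every Control mouse, and in 176 (1.42%) all of them were below, 7.92% together. Of the called genes, 487 that rose and 93 that fell had groups that did not overlap, and 654 of the 735 were protein-coding. A principal component analysis of the 10 mice placed the groups apart on its first axis, which held 18.4% of the variance.

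The excess of rises went with the scale of the values. The median log2 fold change of all genes was 0.08 as deposited and −0.01 after quantile normalization, which gives every library the same distribution, or median scaling, which gives every library the same median. Quantile normalization gave 227 genes higher (1.84%) and 266 lower (2.15%), and median scaling gave 201 (1.63%) and 269 (2.18%). Of the 612 genes that rose as deposited, 225 also rose after quantile normalization and 201 after median scaling. Of the 123 that fell, 111 and 122 also fell. Rises are read against the median of 0.08. Calls also depended on single mice, since leaving out Control mouse 1 gave 271 rises and 67 falls, Control mouse 3 gave 292 and 70, Control mouse 5 gave 404 and 95, Ang II mouse 2 gave 316 and 82, and Ang II mouse 5 gave 275 and 73.

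**Figure D1:**
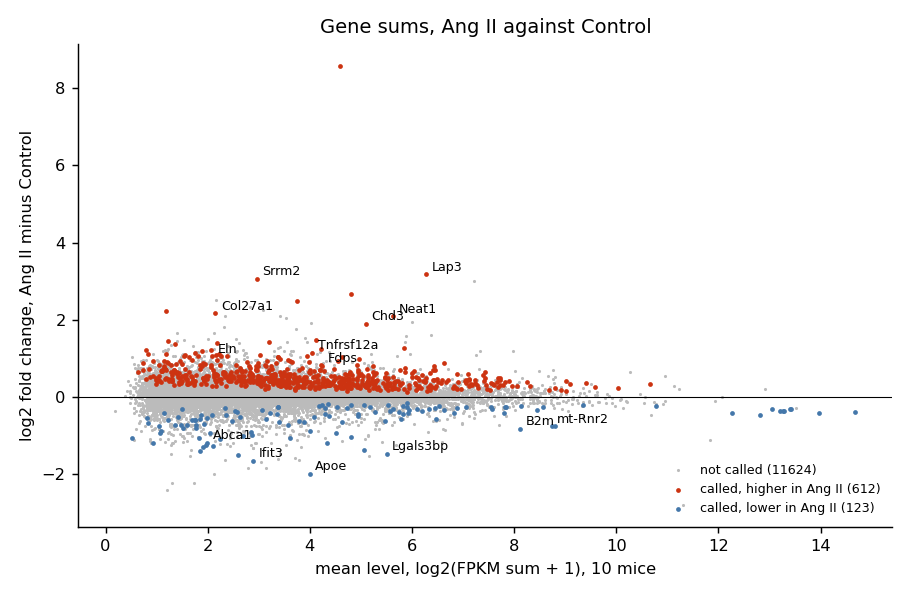
Mean level over the 10 mice (x axis, log2 of the FPKM sum + 1) against the log2 fold change, Ang II minus Control (y axis), for 12359 genes. Red points are the 612 genes called higher and blue points the 123 called lower. Most rises were small, and the point near 8.6 is the micro-RNA gene Gm22133, listed at 0.2 FPKM in every Control mouse.

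Interferon-stimulated genes were the list with the most falls among those examined. Type I and type II interferons switch on a shared set of antiviral genes through STAT and IRF factors, and the element that IRF factors bind carries GAAA repeats. Of 83 genes of this kind on the list, 63 were tested, 21 fell and none rose, which is 33.3% called against 0.995% of all genes called lower. The median log2 fold change of the 63 was −0.54 (all genes 0.08), and 56 lay below 0. After quantile normalization 27 fell and the median was −0.65. With only the most abundant transcript of each gene 13 of 62 fell, and in the model of the 10 mice alone 16 fell.

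Ifit3, which together with Ifit1 binds viral RNA, was at 13.1, 18.4, 9.28, 24.9 and 4.41 FPKM in the Control mice and at 4.18, 2.61, 1.87, 4.04 and 3.68 FPKM in the Ang II mice. The group means were 14.02 ± 7.95 and 3.28 ± 0.999 FPKM (SD over 5 mice), and the log2 fold change was −1.66 (SE 0.36, adjusted p = 0.0184, limma). Dtx3l, a ubiquitin ligase of the interferon response, had the smallest spread, with Control mice at 3.43 to 4.19 FPKM and Ang II mice at 1.58 to 2.26 FPKM, a log2 fold change of −0.69 (SE 0.09, adjusted p = 0.00393, limma).

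The 21 falls included 6 immunity-related GTPases, which attack the vacuoles of intracellular pathogens. Tgtp1 and Tgtp2 are near-identical copies whose reads may be split arbitrarily, and both had a log2 fold change of −1.25 (adjusted p = 0.00741 each, limma). Tgtp1 was at 3.62 to 8.31 FPKM in Control and 1.24 to 2.26 FPKM in Ang II. Igtp fell by 0.98, Iigp1 by 0.92, Irgm1 by 0.92 and Irgm2 by 0.91 on the log2 scale. Of these only Irgm1 had groups that overlapped, since Control mouse 5 (17.7 FPKM) was below 2 of the Ang II mice (18.1 and 18.0 FPKM).

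The viral RNA sensors Ddx58 (RIG-I) and Ifih1 (MDA5) fell by 0.56 and 0.58 on the log2 scale, each without overlap. Cxcl10, a chemokine for T cells, was at 4.24, 5.26, 6.29, 3.28 and 2.51 FPKM in Control and at 1.97, 1.64, 0.878, 1.67 and 1.28 FPKM in Ang II, a log2 fold change of −1.06 (SE 0.20, adjusted p = 0.0111, limma). Isg15, a ubiquitin-like modifier, fell by 1.09, and Bst2 (tetherin), which holds budding virions at the membrane, by 1.18 on the log2 scale, with overlap in both. Usp18, which removes Isg15 from proteins, fell by 0.72 on the log2 scale. The calls of Bst2 and Usp18 were each lost in 7 of the 10 fits that left out 1 mouse.

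B2m, the invariant light chain of class I molecules and a member of the list, was at 428, 435, 384, 366 and 258 FPKM in the Control mice and at 230, 207, 183, 209 and 215 FPKM in the Ang II mice, with no overlap. Its log2 fold change was −0.82 (SE 0.14, adjusted p = 0.00863, limma). H2-T23, a non-classical class I gene that is not on the list and was picked after its values were seen, fell from 60.4–78.4 FPKM in Control to 38.4–52.6 FPKM in Ang II (log2 fold change −0.56, adjusted p = 0.00848, limma).

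Control mouse 5 stood lowest among the Control mice in 37 of the 63 tested interferon-stimulated genes and in 19 of the 21 that fell. In 7 of those 21 it was no higher than the highest Ang II mouse. Lgals3bp, a secreted scavenger-receptor protein, was at 96.0, 120, 58.0 and 131 FPKM in Control mice 1 to 4, at 26.1 FPKM in Control mouse 5, and at 22.4 to 27.7 FPKM in Ang II. With only its most abundant transcript the log2 fold change of Lgals3bp was 0.82 (adjusted p = 0.797, limma). Ifi27 showed the same order, with 49.996 to 82.7 FPKM in Control mice 1 to 4, 20.8 FPKM in Control mouse 5 and 17.1 to 25.1 FPKM in Ang II. Without Control mouse 5 the count of falling genes on the list was 23, without Control mouse 1 it was 14 and without Ang II mouse 2 it was 15. The Ang II + QDG mice differed by gene, with means between those of the other groups for Ifit3 (6.72 FPKM) and B2m (279 FPKM), and means near those of the Ang II mice for Ifit1 (1.64 and 1.42 FPKM), Isg15 (2.38 and 2.31 FPKM), Ifi27 (19.3 and 19.9 FPKM) and Cxcl10 (1.61 and 1.49 FPKM).

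**Figure D2:**
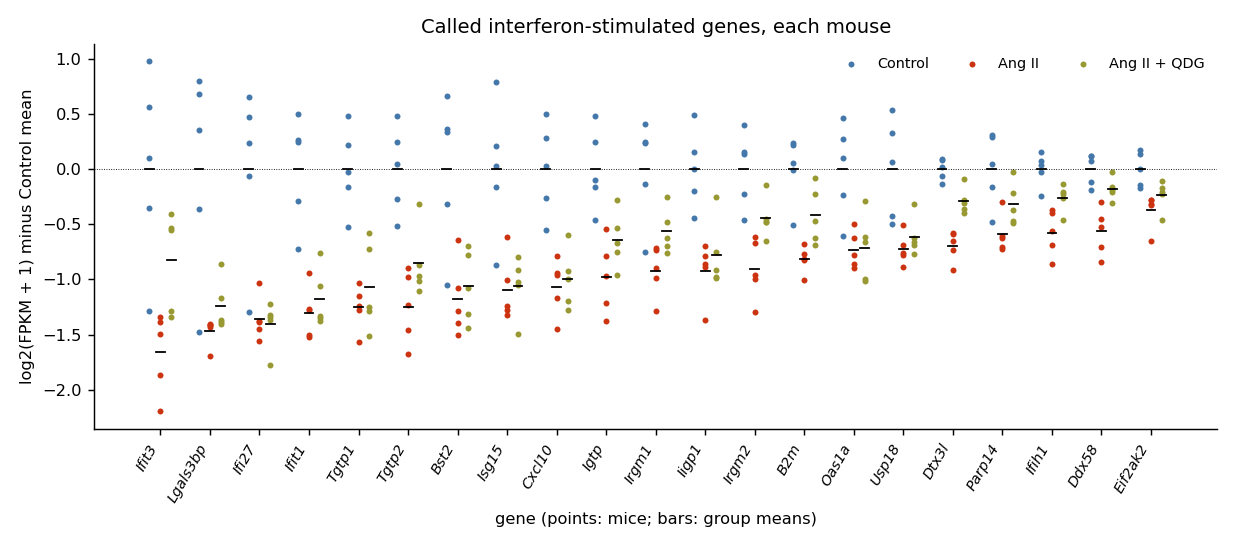
Each point is 1 mouse, as log2(FPKM + 1) minus the Control mean of that gene (y axis), for the 21 interferon-stimulated genes that fell (x axis, ordered by fold change), with bars at group means. The Ang II means lie between −1.66 and −0.37, and 1 Control mouse sits low in Ifit3, Lgals3bp, Ifi27 and Bst2.

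Promoters of 4 of these genes are shown because their members moved together, with the GAAA units that the IRF element repeats in capitals. Each run is 300 bases of RefSeq sequence on GRCm38.p6, from 250 bases before the start site to 50 after it, 5′ to 3′ on the strand of the gene. The motif searched was GAAA on both strands, so that a match on the opposite strand reads TTTC, and spacing between units was not part of the search. The windows were chr19:34640639-34640938 (plus strand) for Ifit1, chr19:34583279-34583578 (plus strand) for Ifit3, chr11:58214727-58215026 (plus strand) for Irgm2 and chr2:122147437-122147736 (plus strand) for B2m.
Ifit1: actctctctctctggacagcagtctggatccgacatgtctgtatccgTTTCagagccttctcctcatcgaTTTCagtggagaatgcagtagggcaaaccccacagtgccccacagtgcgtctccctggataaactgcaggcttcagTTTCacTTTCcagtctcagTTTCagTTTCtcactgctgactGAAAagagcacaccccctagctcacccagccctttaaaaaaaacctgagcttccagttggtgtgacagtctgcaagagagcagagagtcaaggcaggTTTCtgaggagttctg
Ifit3: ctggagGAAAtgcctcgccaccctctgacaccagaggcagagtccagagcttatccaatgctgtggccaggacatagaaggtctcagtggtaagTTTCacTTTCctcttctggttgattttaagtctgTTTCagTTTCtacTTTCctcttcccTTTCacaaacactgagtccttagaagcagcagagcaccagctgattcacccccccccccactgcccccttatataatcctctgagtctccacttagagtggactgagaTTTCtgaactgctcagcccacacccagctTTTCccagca
Irgm2: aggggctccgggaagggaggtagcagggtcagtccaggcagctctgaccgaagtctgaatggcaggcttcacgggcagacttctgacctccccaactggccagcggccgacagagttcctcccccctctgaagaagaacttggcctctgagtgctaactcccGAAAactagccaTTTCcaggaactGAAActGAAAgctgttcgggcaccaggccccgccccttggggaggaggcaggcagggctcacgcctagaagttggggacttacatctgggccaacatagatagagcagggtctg
B2m: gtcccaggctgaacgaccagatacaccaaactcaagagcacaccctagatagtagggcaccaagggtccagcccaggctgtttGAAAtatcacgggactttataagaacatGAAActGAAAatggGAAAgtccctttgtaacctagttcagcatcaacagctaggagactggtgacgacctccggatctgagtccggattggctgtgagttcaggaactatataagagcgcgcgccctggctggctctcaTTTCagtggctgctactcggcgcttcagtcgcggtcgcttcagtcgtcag

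Ifit1 held 8 units, Ifit3 held 9, Irgm2 held 4 and B2m held 5, counting both strands. Of the 83 listed genes 62 had a promoter in the table, and all 62 held at least 1 unit, with a median of 6. A run of 4 letters is common, and 24469 of all 27025 genes with a promoter (90.5%) held it, with a median of 3. The mean was 6.76 units in the 17 falling members with a promoter, 4.79 in the 34 tested members that were not called, 4.42 in the 81 genes called lower in all and 2.35 in the 454 called higher. A match is only a run of letters and does not show a binding site.

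Leukocyte markers were examined as well. Of 42 on the list 26 were tested, 25 had a negative fold change and the median was −0.42 (all genes 0.08). Called lower was 1 of the 26 (3.85% against 0.995% of all genes), since only Lst1, a membrane protein of myeloid cells, fell (Control 1.54 to 2.16 FPKM, Ang II 0 to 0.682 FPKM, log2 fold change −1.19, adjusted p = 0.0118, limma). Lst1 reached 1 FPKM in no Ang II mouse, so it passed the filter through the other mice, mainly Control. Ctss, a protease of antigen-presenting cells, was at 10.8 to 20.1 FPKM in Control and 7.22 to 9.51 FPKM in Ang II, with an adjusted p of 0.0868 (limma). The summed level of the 30 leukocyte markers listed in all libraries was 333 to 519 FPKM in Control and 257 to 357 FPKM in Ang II, and 2 of them were under 1 FPKM in all 10 mice. The part of the leukocyte content in the fall of the interferon-stimulated genes was not tested. In the list of complement and coagulation genes 1 of 24 rose and 2 fell, 12.5% called against 5.95% of all genes, and none was called without Control mouse 1 or 3. C4b, a complement component, fell by 0.81 and F5, coagulation factor V, by 0.47 on the log2 scale, and Thbd, the endothelial anticoagulant thrombomodulin, rose by 0.53 on the same scale (adjusted p = 0.0277, 0.0309 and 0.0245, limma). Thbd lost its call under quantile normalization and median scaling (adjusted p = 0.0659 and 0.07), and F5 and C4b lost theirs in 6 and 4 of the 10 fits without 1 mouse.

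Some genes of cholesterol and fatty acid synthesis rose. Cells short of sterol free the factor SREBP2, which switches on the mevalonate pathway and the LDL receptor route, while the liver X receptors (LXR) switch on cholesterol export when sterol is plentiful. Of 35 synthesis genes tested 8 rose and none fell (22.9% called against 4.95% of all genes called higher), and the median log2 fold change was 0.32, with 9 of the 35 below 0. After quantile normalization 7 rose, and after median scaling 6. With only the most abundant transcript of each gene 4 rose, and in the model of the 10 mice alone 6.

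Fdps, the farnesyl diphosphate synthase of the mevalonate pathway (GRCm38 chromosome 3, 89093588 to 89101959), was at 13.7, 13.4, 12.7, 16.5 and 10.9 FPKM in Control and at 25.0, 22.3, 22.8, 20.6 and 30.1 FPKM in Ang II. The groups did not overlap, and the log2 fold change was 0.80 (SE 0.12, adjusted p = 0.00591, limma).

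Srebf2, which encodes SREBP2 itself, rose from 19.1–23.2 FPKM in Control to 24.2–29.7 FPKM in Ang II (log2 fold change 0.41, SE 0.08, adjusted p = 0.012, limma). Acly, which makes cytosolic acetyl-CoA for both sterol and fatty acid synthesis, rose from 41.8–49.3 FPKM to 57.8–96.8 FPKM, a log2 fold change of 0.66. The mevalonate pathway kinase Pmvk (0.71) and the later sterol enzymes Lss (0.54), Nsdhl (0.45) and Msmo1 (0.71) also rose on that scale. The call of Msmo1 was lost in 6 of the 10 fits without 1 mouse, and that of Nsdhl under quantile normalization (adjusted p = 0.0516). Under median scaling both calls were lost (adjusted p = 0.0641 for Nsdhl and 0.0503 for Msmo1, limma), and the groups of Msmo1 overlapped. In the Ang II + QDG mice Fdps was at 12.2 to 17.9 FPKM.

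Of 12 tested LXR targets 3 fell and none rose (25.0% against 0.995% of all genes called lower). The median log2 fold change was −0.09, and 5 of the 12 lay above 0. Abca1, the pump that loads cholesterol onto apolipoprotein particles, had individual values of 3.91, 4.67, 5.68, 4.03 and 7.38 FPKM in Control and 2.30, 1.61, 1.27, 1.72 and 1.38 FPKM in Ang II, a clear gap between the groups. Apoe, a lipid carrier, was at 28.4, 24.4, 51.8, 63.7 and 11.6 FPKM in Control and at 7.01, 5.08, 9.11, 8.003 and 6.47 FPKM in Ang II. A log2 fold change of −1.99 (SE 0.49, adjusted p = 0.0305, limma) lost its call in 6 of the 10 fits without 1 mouse. Smpdl3a, a secreted phosphodiesterase, fell from 219–276 FPKM to 184–207 FPKM (log2 fold change −0.41, adjusted p = 0.00741, limma).

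The promoters of 2 sterol enzymes that rose are shown with the CCAAT box in capitals, the motif bound by NF-Y, a partner of SREBP at sterol genes. The search covered both strands, so that ATTGG marks a box on the opposite strand. The RefSeq windows on GRCm38.p6 were chrX:72918271-72918570 (plus strand) for Nsdhl and chr8:64733529-64733828 (minus strand) for Msmo1.
Nsdhl: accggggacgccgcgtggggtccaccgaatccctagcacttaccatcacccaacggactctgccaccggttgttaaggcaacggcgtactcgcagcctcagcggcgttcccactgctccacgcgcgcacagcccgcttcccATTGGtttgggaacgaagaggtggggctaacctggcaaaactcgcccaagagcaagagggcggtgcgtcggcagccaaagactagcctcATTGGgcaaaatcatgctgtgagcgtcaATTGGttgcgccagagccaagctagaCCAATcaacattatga
Msmo1: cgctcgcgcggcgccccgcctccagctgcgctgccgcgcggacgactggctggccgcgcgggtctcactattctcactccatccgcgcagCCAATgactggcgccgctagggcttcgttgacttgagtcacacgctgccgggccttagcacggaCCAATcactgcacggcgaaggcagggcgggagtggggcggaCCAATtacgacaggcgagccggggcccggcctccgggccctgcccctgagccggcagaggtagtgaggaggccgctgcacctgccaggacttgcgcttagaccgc

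Nsdhl held 4 boxes and Msmo1 held 3, against a mean of 1.83 (median 1) in the 6 synthesis genes with a promoter that rose. Of the 454 genes called higher with a promoter, 43.0% held the box. The box was in 20 of the 24 synthesis genes with a promoter in the table (83.3%), in all 6 of those that rose and in 14 of the 18 that were tested and not called, and in 41.1% of all genes with a promoter.

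Lists for the glomerulus, the vessel wall and the matrix held rises and no falls as deposited. Of 22 podocyte genes 5 rose and none fell (median log2 fold change 0.24), of 32 endothelial genes 6 rose (median 0.23), of 22 smooth muscle and pericyte genes 5 rose (median 0.27) and of 48 extracellular matrix genes 8 rose (median 0.32), against 4.95% of all genes. Quantile normalization and median scaling each gave 2, 3, 2 and 4 rises in these lists and 1 fall, in a podocyte gene. These counts also depended on single mice, since fits without 1 mouse gave 2 to 5, 3 to 5, 2 to 5 and 4 to 7 rises. They were 2, 3, 2 and 4 without Control mouse 3 or Ang II mouse 5, 3, 3, 2 and 4 without Control mouse 1, 2, 4, 2 and 7 without Control mouse 5, and 2, 3, 4 and 4 without Ang II mouse 2. The podocyte and endothelial counts were 3 and 3 without Control mouse 4, the podocyte count was 3 without Ang II mouse 3, and the smooth muscle count was 2 without Ang II mouse 1 or 4.

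Podocytes are the octopus-shaped cells whose foot processes carry the filtration slit. Sema3g, a semaphorin made by podocytes and endothelium (GRCm38 chromosome 14, 31217860 to 31230352), was at 13.9, 16.6, 16.5, 15.9 and 17.0 FPKM in Control and at 29.0, 36.0, 28.3, 28.5 and 35.2 FPKM in Ang II. With no overlap, the log2 fold change was 0.93 (SE 0.10, adjusted p = 0.00162, limma).

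Podxl, the main sialoprotein of the podocyte surface, rose by a log2 fold change of 0.35, Vegfa, the growth factor that podocytes supply to the glomerular capillaries, by 0.41 and the slit scaffold Magi2 by 0.68. These 3 calls were lost under quantile normalization (adjusted p = 0.121, 0.107 and 0.131) and in 5 to 8 of the 10 fits without 1 mouse. The sign of Vegfa turned (−0.33, adjusted p = 0.796, limma) when only its most abundant transcript was used.

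In the endothelium, Egfl7, a secreted protein of vessel walls, rose from 6.20–9.84 FPKM in Control to 10.3–22.9 FPKM in Ang II (log2 fold change 0.92, SE 0.18, adjusted p = 0.014, limma). Sox18, a transcription factor of endothelial identity, rose from 5.66–7.79 FPKM to 10.5–13.1 FPKM (log2 fold change 0.81, adjusted p = 0.00832, limma). Nos3, the endothelial nitric oxide synthase, was at 1.48, 2.26, 1.04, 1.29 and 1.28 FPKM in Control and at 2.75, 2.71, 2.91, 2.40 and 2.29 FPKM in Ang II, so that all Ang II mice were above all Control mice by a narrow margin. Ehd3, a marker of glomerular capillaries, rose by 0.51 on the log2 scale and lost its call under quantile normalization (adjusted p = 0.0779). The summed level of all 34 endothelial genes overlapped between the groups, at 260 to 365 FPKM in Control and 313 to 412 FPKM in Ang II.

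Some contractile and cytoskeletal genes rose as well. Flna, an actin cross-linker of smooth muscle and many other cells (GRCm38 chromosome X, 74223461 to 74249820), was at 8.42 to 12.8 FPKM in Control and at 17.6 to 23.3 FPKM in Ang II, a log2 fold change of 0.91 (SE 0.12, adjusted p = 0.00393, limma). Myl9, a myosin light chain, rose from 23.4–31.8 FPKM to 33.9–53.6 FPKM (log2 fold change 0.72). The smooth muscle genes Tagln (0.59) and Tpm1 (0.48) rose on that scale but lost their calls under quantile normalization (adjusted p = 0.0653 and 0.0806). Of 33 tubulin and actin cytoskeleton genes 8 rose and none fell (24.2% against 4.95% of all genes, median 0.27 against 0.08), with 5 rises under quantile normalization, 4 under median scaling and 5 (Control mouse 1 or Ang II mouse 5) to 10 without 1 mouse. They included the crosslinker Actn1 (log2 fold change 0.50, adjusted p = 0.00974, limma) and the tubulin Tubb4b (0.46, adjusted p = 0.00976, limma), neither of which overlapped between the groups.

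Of type IV collagen, the network of basement membranes, 3 chains were called higher as deposited, where 4.95% of all genes were. Only Col4a2 of the 3 kept its call under quantile normalization and median scaling, and the other chains are not described here. Col4a2 was at 24.1, 25.9, 20.6, 27.6 and 24.3 FPKM in Control and at 38.8, 35.2, 41.6, 30.2 and 38.8 FPKM in Ang II (log2 fold change 0.57, SE 0.09, adjusted p = 0.00711, limma). Col4a1, which shares its promoter region with Col4a2, rose by 0.61 and the glomerular chain Col4a3 by 0.56 on the log2 scale, and both lost their calls under quantile normalization (adjusted p = 0.0925 and 0.0749). Eln, the elastin of arteries, rose from 1.21–2.65 FPKM to 4.07–6.97 FPKM, a log2 fold change of 1.06 (SE 0.20, adjusted p = 0.0111, limma).

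Sparc, a collagen-binding matrix protein, and Loxl2, a collagen cross-linking oxidase, rose by 0.50 and 0.54 on the log2 scale with no overlap. Pdgfrb, the receptor that marks pericytes, was at 0 to 1.34 FPKM in Control and 2.12 to 2.72 FPKM in Ang II, and its call was lost in 9 of the 10 fits without 1 mouse. Beyond the list, the fibrillar collagen Col27a1 was at 0.0240, 3.95, 0.0744, 0.328 and 4.62 FPKM in Control and at 7.05 to 10.3 FPKM in Ang II (log2 fold change 2.17, adjusted p = 0.0155, limma). The fibril-associated collagen Col16a1 was at 0 to 2.31 FPKM in Control and 2.65 to 3.37 FPKM in Ang II, a log2 fold change of 1.46 (adjusted p = 0.0269, limma) whose call was lost in 6 of the 10 fits without 1 mouse.

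**Figure D3:**
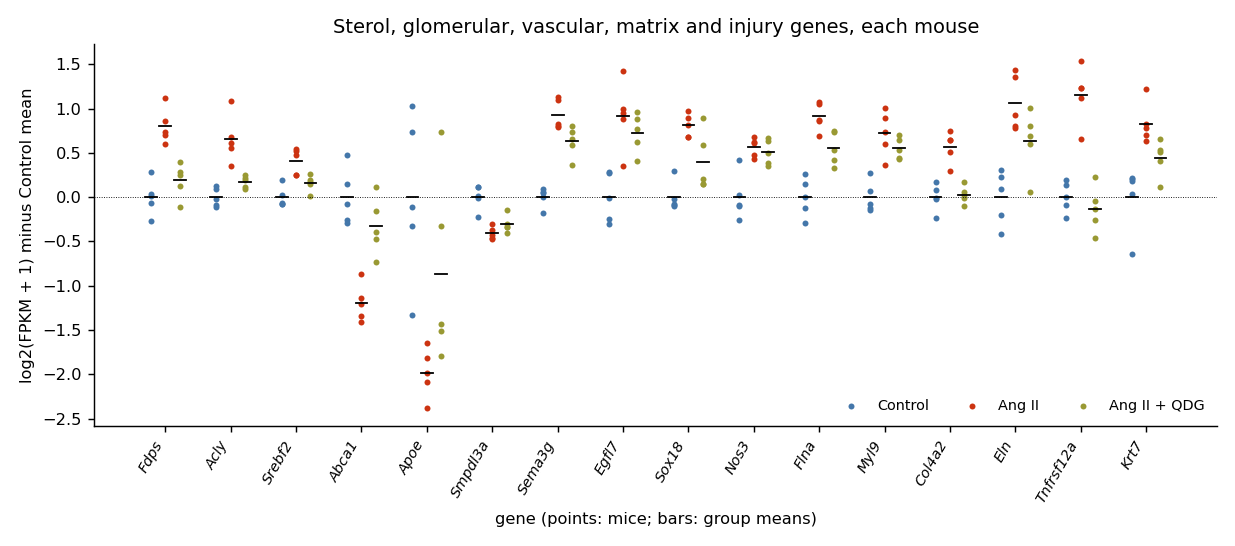
Each point is 1 mouse, as log2(FPKM + 1) minus the Control mean of that gene (y axis), with bars at group means, for 16 genes of sterol handling, glomerulus, vessel wall, matrix and injury (x axis). Abca1, Apoe and Smpdl3a lie below the Control mean in every Ang II mouse and the others above it. The Ang II + QDG means of Tnfrsf12a, Col4a2 and Fdps lie nearer to Control than to Ang II.

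Lists of tubular genes gave varied counts. Of 31 injury markers 3 rose and none fell (9.68% against 4.95% of all genes called higher), and Lcn2, the lipocalin used as a urinary injury marker, had a log2 fold change of 0.41 (adjusted p = 0.599, limma). Tnfrsf12a, the receptor of the cytokine TWEAK, rose most in this list (log2 fold change 1.15, SE 0.16, adjusted p = 0.00418, limma). Its Control mice were at 8.40 to 11.6 FPKM, its Ang II mice at 16.4 to 31.1 FPKM and its Ang II + QDG mice at 7.05 to 12.03 FPKM. Krt7, a keratin of collecting duct and injured epithelium, rose from 7.98–15.3 FPKM to 20.7–31.7 FPKM (log2 fold change 0.83, adjusted p = 0.015, limma), and Tubb6 rose by 0.52 on the log2 scale.

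Among 31 genes of sodium transport 5 rose and none fell, 16.1% against 4.95% of all genes. Quantile normalization gave 2 rises, median scaling 1, and fits without 1 mouse 1 (Control mouse 1 or 3) to 6, with 3 without Control mouse 5 or Ang II mouse 2 and 2 without Ang II mouse 5. Scnn1a, the alpha subunit of the epithelial sodium channel that aldosterone controls, was at 37.5, 42.8, 36.0, 37.4 and 35.8 FPKM in Control and at 50.9, 60.8, 56.1, 42.6 and 59.1 FPKM in Ang II (log2 fold change 0.49, SE 0.10, adjusted p = 0.0175, limma). The groups met only where Ang II mouse 4 was just below the highest Control mouse, and the call was lost under quantile normalization (adjusted p = 0.0554). Atp1b1, the beta subunit of the sodium pump, rose by 0.24 on the log2 scale, and its call was lost under median scaling (adjusted p = 0.136).

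Slc26a4 (pendrin), the chloride and bicarbonate exchanger of intercalated cells, rose by a log2 fold change of 0.49, with an adjusted p of 0.0914 under quantile normalization. Of 26 intercalated and collecting duct genes 5 rose (median 0.27), 19.2% against 4.95% of all genes. Both scalings gave 2 rises, and fits without 1 mouse gave 2 (Control mouse 3 or 5, Ang II mouse 2 or 5) to 5, with 3 without Control mouse 1, 2 or 4. Atp6v0a4, the proton pump subunit of intercalated cells, was at 2.86 to 7.82 FPKM in Control and at 6.81 to 14.7 FPKM in Ang II (log2 fold change 1.09, adjusted p = 0.0241, limma, and 0.051 under quantile normalization). The transcription factor Gata2 rose by 0.55 and the sialyltransferase St6gal1 by 0.40 on the log2 scale.

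Of 52 proximal tubule transport genes 1 rose (1.92% called against 5.95% of all genes), and the median log2 fold change was 0.01 (all genes 0.08). Quantile normalization gave no rise and 1 fall and median scaling no rise and 2 falls, with medians of −0.08 each. The gene that rose as deposited was Slco1a6, an organic anion transporter, at 2.31 to 4.99 FPKM in Control and 7.59 to 9.08 FPKM in Ang II, and its call was lost in 8 of the 10 fits without 1 mouse. Slc3a1, the cystine transporter subunit, had a log2 fold change of −0.22 (adjusted p = 0.0974, limma, and 0.0368 under median scaling). Of 54 cytochrome P450 and conjugation enzymes 1 rose and 1 fell (3.70% called against 5.95% of all genes), while both scalings gave no rise and 2 falls. Cyp27b1, the proximal tubule enzyme that makes active vitamin D, was at 9.43, 10.4, 7.79, 9.08 and 11.05 FPKM in Control and at 18.0, 51.0, 12.4, 24.4 and 59.8 FPKM in Ang II, so that every Ang II mouse was higher but by very different amounts.

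The log2 fold change of Cyp27b1 was 1.47 (SE 0.39, adjusted p = 0.0427, limma), and the call was lost in 8 of the 10 fits without 1 mouse and under quantile normalization (adjusted p = 0.0634). Cyp2j5, an epoxygenase of arachidonic acid, fell from 670–725 FPKM to 571–627 FPKM, a log2 fold change of only −0.19 with no overlap (adjusted p = 0.0151, limma).

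Of 11 genes of the renin–angiotensin system 1 passed the test (9.09% against 5.95% of all genes), and none did in the model of the 10 mice alone. Ace, the enzyme that forms Ang II, fell in kidneys that received the peptide from a pump, with 46.2, 50.9, 53.3, 64.4 and 59.4 FPKM in Control and 45.3, 25.3, 34.9, 41.3 and 30.7 FPKM in Ang II. A log2 fold change of −0.63 (SE 0.16, adjusted p = 0.0381, limma) lost its call in 7 of the 10 fits without 1 mouse. Ren1, which sustained Ang II is known to repress, was at 35.3, 33.2, 36.8, 33.9 and 26.9 FPKM in Control and at 24.7, 33.7, 17.1, 37.9 and 37.3 FPKM in Ang II.

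The Ren1 groups overlapped and its log2 fold change was −0.18 (adjusted p = 0.719, limma), so the fall that was looked for as a check of the infusion did not pass the test. Agt, the precursor of the peptide, had a log2 fold change of −0.33 (adjusted p = 0.465, limma). Agtr1a, the type 1 receptor, was at 18.4 to 22.5 FPKM in all Ang II mice and at 22.4, 21.1, 18.6, 6.81 and 5.48 FPKM in Control, with an adjusted p of 0.258 (limma).

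Immediate early genes respond within minutes to signals and to handling. Of 23 tested 5 rose and 1 fell (26.1% called against 5.95% of all genes), 21 lay above 0 and the median log2 fold change was 0.24. Without 1 mouse 2 (Control mouse 3) to 7 rose, with 3 without Control mouse 1, 4 or 5 or Ang II mouse 1 or 2, and the model of the 10 mice alone gave 2 rises. Jun (log2 fold change 0.59, adjusted p = 0.0164, limma) and Junb (0.56, adjusted p = 0.0143, limma) rose with no overlap. Nr4a1, an orphan nuclear receptor, rose by a log2 fold change of 1.20, with the call lost in 8 of the 10 fits without 1 mouse. Dusp1, a phosphatase that shuts off MAP kinases, fell from 12.6–19.4 FPKM to 4.58–9.96 FPKM (log2 fold change −1.07, SE 0.24, adjusted p = 0.0214, limma), and its call was lost without Control mouse 1, Control mouse 3 or Ang II mouse 5.

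Fkbp5, a chaperone partner of the glucocorticoid receptor that was picked after its values were seen, was at 33.9, 37.5, 31.9, 41.0 and 36.2 FPKM in Control and at 47.3, 80.1, 210, 64.4 and 99.0 FPKM in Ang II. The log2 fold change was 1.26 (SE 0.28, adjusted p = 0.0226, limma), and the Ang II + QDG mice were at 26.2 to 37.0 FPKM. Of 20 circadian clock genes 3 rose (against 4.95% of all genes), among them Ciart (1.06) and the kinase Csnk1e (0.48) on the log2 scale. None of the 20 was called under quantile normalization or median scaling, fits without 1 mouse gave 0 (Control mouse 4, Ang II mouse 3 or 5) to 2 rises, and Ciart and Csnk1e lost their calls in 8 and 5 of the 10. Of 42 genes of the unfolded protein response and chaperones 5 rose (11.9% against 4.95% of all genes). Quantile normalization gave 1 rise, median scaling no rise and 1 fall, and fits without 1 mouse 0 (Ang II mouse 5) to 6, with 1 without Ang II mouse 2, 2 without Control mouse 1 or Ang II mouse 4 and 3 without Control mouse 3 or 5. Dnaja1, an Hsp70 co-chaperone, was at 52.9 to 75.8 FPKM in Control and at 74.0 to 138 FPKM in Ang II (log2 fold change 0.69, adjusted p = 0.0196, limma, and 0.0596 under median scaling). Creld2, a protein of the endoplasmic reticulum, rose by 0.41 on the log2 scale. Its call was lost under quantile normalization and median scaling (adjusted p = 0.0961 and 0.107) and in 5 of the 10 fits without 1 mouse, and its Ang II + QDG mice were at 10.2 to 14.4 FPKM against 14.8 to 17.7 FPKM in Control.

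Calls differed in direction between nuclear genes of the respiratory chain and genes of the mitochondrial genome, a list that also holds ribosomal RNAs. Of 78 nuclear subunits of oxidative phosphorylation 18 rose and none fell (23.1% against 4.95% of all genes, median log2 fold change 0.15 against 0.08), and of 11 tested genes of the mitochondrial genome none rose and 7 fell (63.6% against 0.995% of all genes called lower, median −0.40). Ndufa8, a complex I subunit, was at 105, 96.4, 101, 114 and 102 FPKM in Control and at 144, 134, 131, 124 and 145 FPKM in Ang II (log2 fold change 0.38, SE 0.07, adjusted p = 0.00985, limma). Atp5d, an ATP synthase subunit, rose by 0.25 on the log2 scale and lost its call under both scalings (adjusted p = 0.0718 and 0.088).

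Both mitochondrial ribosomal RNAs fell. The study's methods name rRNA depletion followed by a poly(A) step, of which the labels give only the depletion. The part of these steps in the values of mitochondrial RNAs and of transcripts that keep an intron was not tested. For mt-Rnr1 the range was 498 to 615 FPKM in Control and 284 to 410 FPKM in Ang II, and for mt-Rnr2 it was 489 to 663 FPKM and 289 to 372 FPKM. Their log2 fold changes were −0.74 and −0.76 (adjusted p = 0.00497 and 0.0063, limma). The mRNA mt-Cytb fell from 17442–20124 FPKM to 13721–14111 FPKM and mt-Co1 from 28557–33016 FPKM to 21784–24011 FPKM, each by 0.40 on the log2 scale. Quantile normalization, which gives the top ranks the same values in every library, put both at 0.00 and gave 2 falls, whereas median scaling gave 8.

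The count of rising nuclear subunits also moved, to 11 (with 1 called lower) under quantile normalization and 3 under median scaling. It was 3 without Control mouse 1, 10 without Control mouse 3 and 11 without Control mouse 5. Without Ang II mouse 2 it was 10, and without Ang II mouse 5 it was 5. Genes of the mitochondrial genome held 20.7% to 22.9% of the annotated FPKM in Control and 17.4% to 18.1% in Ang II. FPKM are shares of 1 total, and rescaling without these genes gave a median of 0.07 over all genes, with 485 rises and 131 falls.

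Lists for protein synthesis and energy metabolism gave counts that depended on the scaling. Of 81 cytosolic ribosomal proteins 14 rose and none fell (median log2 fold change 0.16), of 78 mitochondrial ones 4 rose (0.13) and of 54 translation factors 7 rose and 1 fell (0.02), against a share of 4.95% and a median of 0.08 for all genes. Under quantile normalization 8 cytosolic and 2 mitochondrial ribosomal proteins rose, and under median scaling 3 and 1. The translation factors then gave 2 rises and 3 falls, and 2 rises and 4 falls. Without 1 mouse, the cytosolic ribosomal proteins gave 6 to 12 rises, the mitochondrial ones 1 (Control mouse 1) to 7 (Control mouse 4) and the translation factors 4 (Control mouse 1) to 8. Rplp2 rose by 0.43, Rpl15 by 0.30, Mrpl23 by 0.35, Mrpl12 by 0.28, Eif3g by 0.44 and Eif4h by 0.39 on the log2 scale. These 6 were named for the smallest p in their lists, and their groups did not overlap. In the 3 lists every Ang II mouse was higher in 20 of 81, 9 of 78 and 6 of 54 genes (6.5% of all genes). Every Ang II mouse was lower in 0, 1 and 2 of them (1.42% of all genes). The call of Rpl15 was lost under both scalings (adjusted p = 0.0516 and 0.0548) and that of Mrpl12 under median scaling (adjusted p = 0.113). Of 37 proteasome subunits only the catalytic subunit Psmb5 rose (0.37, adjusted p = 0.0155, limma, and 0.0699 under median scaling), 2.70% called against 5.95% of all genes. Psmc6 had −0.18 (adjusted p = 0.0719, limma) and passed under quantile normalization and median scaling (adjusted p = 0.0287 and 0.0448). Glycolysis had 2 of 26 genes called, Pgam1 (0.17) and Aldoa (0.16), which is 7.69% against 5.95% of all genes. Both scalings gave no rise and 1 fall there, and fits without 1 mouse 0 (Control mouse 1 or 3, Ang II mouse 2) to 4 rises (Control mouse 2). Fatty acid oxidation had 1 of 53 called (1.89% against 5.95% of all genes), Hadh, which fell by 0.26 on the log2 scale and lost its call in 9 of the 10 fits without 1 mouse, and Acad11 had −0.25 (adjusted p = 0.0589, limma). Both scalings called 2 genes of this list lower, and the adjusted p of Acad11 was then 0.0272 and 0.0338.

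The lists for cell death gave 0 and 1 calls, against 5.95% of all genes. None of 44 tested p53 pathway genes passed the test (median log2 fold change 0.08, as for all genes), and the smallest adjusted p were 0.0618 for Shisa5 (−0.50) and 0.123 for Aen (0.33), limma. Quantile normalization called 2 of them lower, Shisa5 among them (adjusted p = 0.0448). Of 41 apoptosis genes only Cycs, cytochrome c, rose, and its call was lost under median scaling (adjusted p = 0.066). Bcl2l11 (BIM), which starts mitochondrial apoptosis, was at 1.58 to 3.33 FPKM in Control and at 2.68 to 3.91 FPKM in Ang II (log2 fold change 0.51, adjusted p = 0.0533, limma).

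Of 37 NRF2 targets 1 rose and 1 fell (5.41% called against 5.95% of all genes). Gsr, the glutathione reductase, rose from 67.2–76.8 FPKM to 82.9–116 FPKM (log2 fold change 0.43, adjusted p = 0.0138, limma), while the peroxiredoxin Prdx1 fell from 364–414 FPKM to 253–349 FPKM (−0.33, adjusted p = 0.0286, limma), a call lost in 5 of the 10 fits without 1 mouse. Of 45 cell cycle genes 20 were listed in all libraries, 14 were tested and none was called (Tk1 0.55, adjusted p = 0.106, and Mcm2 0.15, adjusted p = 0.29, limma).

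Of 8 red cell genes 6 lay above 0, with a median log2 fold change of 0.40, and 1 was called (12.5% against 5.95% of all genes). It was Fech, the last enzyme of heme synthesis, which fell from 63.3–77.7 FPKM to 52.1–55.5 FPKM (log2 fold change −0.33, adjusted p = 0.00807, limma). The globin Hba-a1, which has a near-identical copy, had 0.67 (adjusted p = 0.0508, limma), and the summed level of the red cell list was 632 to 1456 FPKM in Control and 1190 to 2019 FPKM in Ang II. Of 3 tested muscle and liver markers 1 was called (33.3% against 5.95% of all genes). Apob fell by 0.39 on the log2 scale, a call lost in 9 of the 10 fits without 1 mouse, and Alb had −0.47 (adjusted p = 0.0542, limma, and 0.0367 and 0.0368 under quantile normalization and median scaling). None of the 6 tested adipocyte markers was called.

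**Figure D4:**
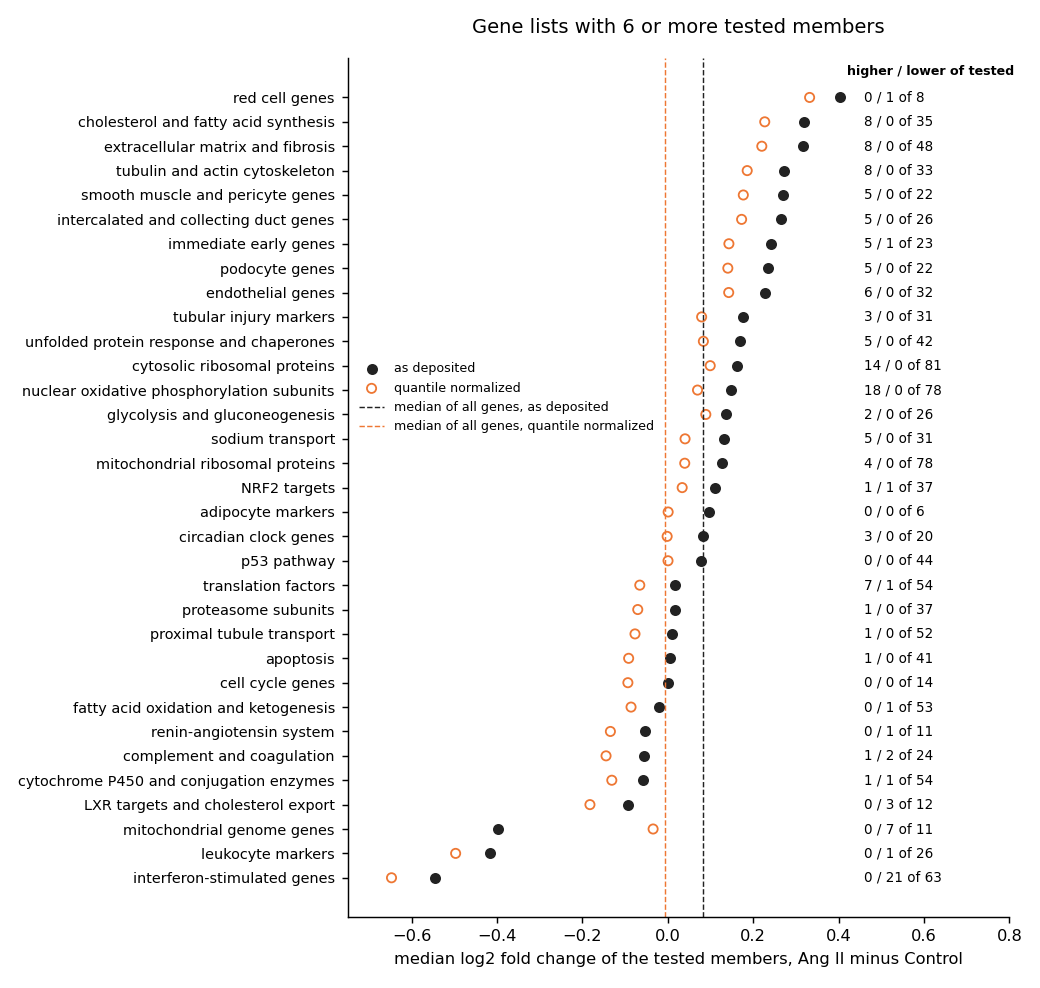
Median log2 fold change, Ang II minus Control (x axis), of the tested members of each gene list with 6 or more of them (y axis), as deposited (filled) and after quantile normalization (open). Dashed lines are the medians of all genes, 0.08 and −0.01, and the text at the right counts called members as deposited. Interferon-stimulated genes lie lowest at −0.54, and the mitochondrial genome genes move from −0.40 to −0.03 with quantile normalization.

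Among the largest rises some were steps between levels and others were graded. Lap3, a cytosolic leucine aminopeptidase (GRCm38 chromosome 5, 45493374 to 45512691), was at 23.7, 23.2, 25.0, 27.5 and 25.1 FPKM in Control and at 216, 263, 270, 219 and 207 FPKM in Ang II. The log2 fold change was 3.18 (SE 0.53, adjusted p = 0.00741, limma). The Ang II + QDG mice were at 22.4 and 22.2 FPKM, near the Control level, and at 169, 163 and 170 FPKM, below every Ang II mouse. Srrm2, a spliceosome protein of nuclear speckles, was at 1.27, 2.46, 3.06, 1.11 and 1.13 FPKM in Control and at 10.5, 26.9, 27.3, 19.3 and 30.4 FPKM in Ang II (log2 fold change 3.06, SE 0.48, adjusted p = 0.00638, limma).

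Phb2, a mitochondrial scaffold protein, was at 4.27, 27.8, 3.29, 38.2 and 5.70 FPKM in Control and at 59.5 to 78.6 FPKM in Ang II, and the call was lost under quantile normalization (adjusted p = 0.0657) and in 8 of the 10 fits without 1 mouse. Chd3, a chromatin remodeller of the NuRD complex, rose by a log2 fold change of 1.89 (adjusted p = 0.00832, limma). Neat1, the RNA that builds nuclear paraspeckles, was at 4.26, 37.5, 42.2, 19.6 and 42.6 FPKM in Control and at 74.97, 197, 151, 54.2 and 85.4 FPKM in Ang II (log2 fold change 2.09, SE 0.52, adjusted p = 0.0317, limma). Malat1, a neighbouring nuclear RNA, was at 0.289 FPKM in Control mouse 1, at 63.5 to 81.8 FPKM in the other Control mice and at 97.8 to 165 FPKM in Ang II. It was not called (log2 fold change 1.94, SE 1.09, adjusted p = 0.319, limma).

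Tmprss2, a membrane serine protease, rose by a log2 fold change of 2.49, the guanine exchange factor Arhgef19 by 2.22, the sodium and proton exchanger Slc9a8 by 1.42 and the homeobox gene Hoxd4 by 1.41 (adjusted p = 0.0223, 0.0184, 0.0188 and 0.0341, limma). Hoxd4 lost its call under quantile normalization and median scaling (adjusted p = 0.0501 and 0.0542) and in 6 of the 10 fits without 1 mouse, and Tmprss2 in 3 of them. Arhgef19 was under 0.1 FPKM in every Control mouse and in 4 of the 5 Ang II + QDG mice, and at 1.36 to 6.79 FPKM in Ang II. It therefore passed the filter of 1 FPKM only through infused mice, mainly those of the Ang II group. The micro-RNA gene Gm22133, picked after its values were seen, was at 0.226 to 0.245 FPKM in Control and at 2055, 2827, 0.232, 1296 and 2454 FPKM in the Ang II mice, so that Ang II mouse 3 was at the Control level. Its call was lost in 9 of the 10 fits without 1 mouse.

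Among the falls, Macrod2, which removes ADP-ribose from proteins, was at 16.0, 3.73, 19.1, 3.93 and 13.1 FPKM in Control and at 1.01 to 3.50 FPKM in Ang II, and the zinc finger gene Sall2 at 2.29 to 7.93 FPKM and 0.132 to 2.28 FPKM. Both calls were lost in 8 of the 10 fits without 1 mouse. Efcab12 was at 0.833 to 1.67 FPKM in Control and listed at 0 in all 5 Ang II mice, so no fold is given. Large differences within a group also occurred elsewhere, and of 5545 genes that reached 10 FPKM in a Control mouse 93 were under 1 FPKM in another, and of 5807 such genes in Ang II 114 were.

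Transcripts that keep an intron took a larger share in Ang II. They held 2.09% to 2.39% of the annotated FPKM in Control and 2.69% to 3.26% in Ang II, and in the Ang II + QDG mice 2.01% to 3.05%. The means were 2.25% ± 0.117 and 2.99% ± 0.245 (SD, n = 5 each, two-sided exact permutation p = 0.00794, which is the least that 5 against 5 can give, and 0.0132 adjusted over 5 such measures). Transcripts marked for nonsense-mediated decay held 0.743% to 0.846% in Control and 0.924% to 1.03% in Ang II, while the share of protein-coding transcripts overlapped (81.1% to 82.2% and 81.3% to 82.4%).

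Of 2757 tested retained-intron transcripts 76 rose and 4 fell, their median log2 fold change being 0.30, while of 15250 protein-coding transcripts 166 rose and 51 fell, with a median of 0.06. The number of genes at 1 FPKM or more was 11362 to 11819 in Control and 11657 to 12025 in Ang II. With sums over protein-coding transcripts only, 325 genes rose and 83 fell among 10802 tested. How much of the excess of rising genes came from unspliced RNA was not tested.

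**Figure D5:**
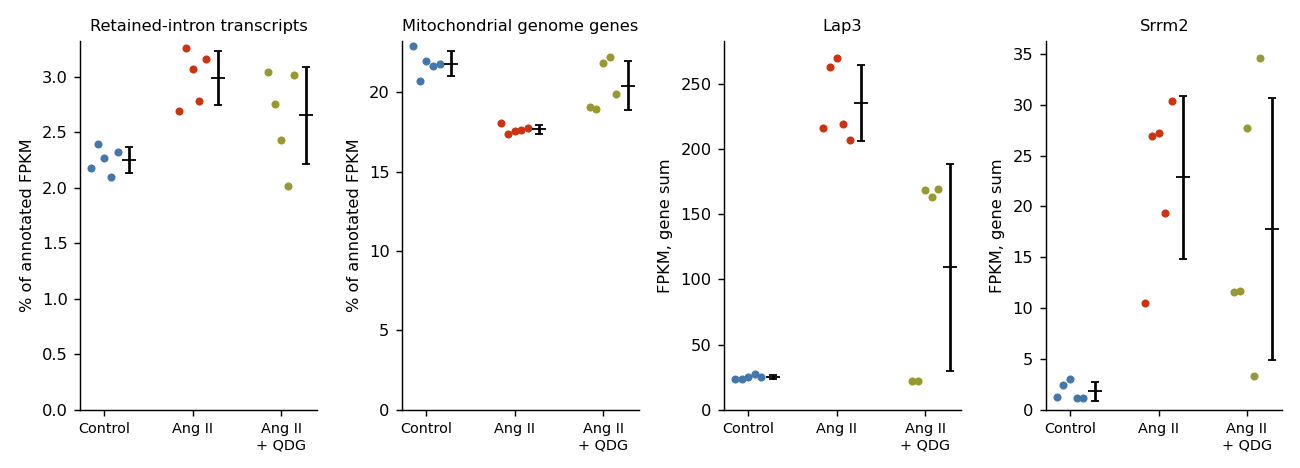
Each point is 1 mouse, with the group mean ± SD beside it, for the share of annotated FPKM in retained-intron transcripts, the share in genes of the mitochondrial genome (both in %), and the gene sums of Lap3 and Srrm2 (FPKM). The Control and Ang II mice do not overlap in any panel, and Lap3 takes 2 levels among the Ang II + QDG mice.

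Gene sums and single transcripts gave different calls. Among 20987 annotated transcripts tested, 344 (1.64%) were called, from 328 genes, and 231 of those genes were also called at the level of the gene. The other 97 were not, and 504 of the 735 called genes had no called transcript. Of these 504, 328 had 2 or more listed transcripts, while 176 had 1, so that their sum is that transcript, tested there among all transcripts. Of the 735, 302 had 1 listed transcript and 433 had 2 or more, so that 5.27% of single-transcript genes and 6.53% of the others were called. In the 433, the transcript that moved most carried a median of 74.3% of the change in the direction of the gene. It carried over 90% in 126 genes and under 50% in 88, and 136 genes had 2 or more transcripts at an unadjusted p under 0.05 in that direction.

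In 5 genes the transcript moved and the sum hardly did. Fxyd2, the gamma subunit of the sodium pump, was at 1371 to 2031 FPKM in Control and 1215 to 1637 FPKM in Ang II, a log2 fold change of 0.01. Meanwhile 3 of its minor transcripts rose, among them a retained-intron form from 1.65 to 5.68 FPKM (means, adjusted p = 0.0243, limma). Abcd4, a transporter of vitamin B12, had a gene sum of 13.9 and 13.98 FPKM while a retained-intron form rose from 0.348 to 1.38 FPKM, and Trnau1ap, a factor for selenoprotein synthesis, had sums of 17.5 and 17.2 FPKM while its retained-intron form rose from 1.57 to 4.67 FPKM. Atp5l, an ATP synthase subunit, had a noncoding form that rose from 0.643 to 2.31 FPKM within a sum of 338 and 342 FPKM. Plscr2, a scramblase, had a coding form that fell from 8.21 to 4.93 FPKM, and its sum varied from 54.6 to 190 FPKM with no difference between the groups that passed the test.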

How the data were processed

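Kidneys of 15 mice were sequenced after rRNA depletion and, by the study's methods, a poly(A) step, with libraries that by the kit named do not mark strand, so genes that overlap on opposite strands cannot be told apart. For each mouse the authors deposited transcript values, which were taken as FPKM. Per the labels' processing notes the build was mm10 and limma was used, and the aligner, assembler and annotation are not given in the sources used here. The step behind the whole read numbers was read from the values and covers counting error only.

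Values were summed over annotated transcripts by GENCODE mouse release M21 (31244 of 31301 Ensembl identifiers matched). Sums + 1 were log2 transformed and tested with limma 3.58.1 (R 4.3.3, lmFit and eBayes with a trend) in 1 model of 15 mice with a mean per group (12 residual degrees of freedom). In data simulated for this comparison over 12359 genes, with normally distributed values, changes were added only to some genes above a minimum mean level. Of these, 41% of genes changed by 0.5 and 70% of those changed by 1 on the log2 scale were called. Recovery of genes at low FPKM, or of genes with steps between mice, was not simulated. No source says that the mice of a group were separate in cage or day, and replicate numbers follow only the order of deposit. No pair of libraries was identical (r of 0.809 to 0.853).

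The gene lists, members and tests were chosen with earlier results of these data known. Named were the 12 largest rises and falls among called genes without overlap (leaving out Gm and Rik symbols and pseudogenes), the 2 members of each of 35 lists with the smallest p, Ren1, Agt, Ace and Agtr1a, and the 5 genes whose transcript moved most beyond the sum. Some genes that this rule names are not reported here. Other genes, including further called members of the lists, were picked after their values were seen. The closing sections give the effect of 11 alternatives that keep every mouse of the comparison and of 10 fits without 1 mouse. Promoters came from RefSeq.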

Additional observations from a re-analysis of the deposited data

Results flagged for a closer look

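In 23 of 274 groups of 5 mice (8.39%), the highest or lowest mouse stood apart from the other 4 by more than Dixon's 95% limit for the gap over the range (0.71), where chance alone gives about 1 in 20. These values, in FPKM, are given without a test of their cause. Among Control mice the highest value stood apart for Sox18 (7.79), Col16a1 (2.31), Scnn1a (42.8), Atp1b1 (1081), Ciart (2.72), Acad11 (142), Aldoa (512), Actn1 (7.42), Star (1.16), Efcab12 (1.67) and Fxyd2 (2031). The lowest Control mouse stood apart for Krt7 (7.98) and Malat1 (0.289). Among Ang II mice the highest stood apart for Col16a1 (3.37), Krt7 (31.7), Actn1 (11.9), Tk1 (7.04) and Ucp1 (57.6). The lowest Ang II mouse stood apart for Lgals3bp (22.4), Junb (9.03), Macrod2 (1.01), Plscr2 (54.6) and Fxyd2 (1215). For Malat1 the nearest other Control mouse was at 63.5 FPKM, and for Ucp1 the nearest other Ang II mouse was at 0.0636 FPKM.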

How the results depend on the processing

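As deposited, 612 genes rose and 123 fell. Quantile normalization gave 227 and 266, median scaling 201 and 269, a model of the 10 mice alone 386 and 71, and the most abundant transcript of each gene 269 rises, while protein-coding transcripts alone gave 325. At the 2-fold threshold with p under 0.05, a pseudocount of 0.1 gave 214 higher and 94 lower, a filter in all 15 mice 43 and 23, quantile normalization 53 higher and the most abundant transcript 97 lower. Without 1 mouse, rises numbered 271 to 688 and falls 67 to 112, and at that threshold 73 to 103 genes were higher and 51 to 62 lower. Of 328 genes with a called transcript, 97 had no call of their own. This became 39 of 170 (quantile), 55 of 216 (median scaling), 60 of 170 (10 mice) and 26 of 178 (protein-coding transcripts). It was 110 of 504 with a filter in all 15 mice, 112 of 328 with the most abundant transcript, and 20 to 69 without 1 mouse. The cause of these shifts was not tested, except that fewer mice give fewer residual degrees of freedom.

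Of the 113 called genes named in the text, 67 kept their call in all 10 fits without 1 mouse and 31 lost it in 5 or more. Quantile normalization took the call from 28 of them, median scaling from 31 and the model of the 10 mice from 30. The most abundant transcript alone took it from 39 of the 112 given a value, and protein-coding transcripts alone from 21 of 108. With only the most abundant transcript, the sign turned for Lgals3bp (0.82), Vegfa (−0.33), Shisa5 (0.24), Aen (−0.17) and Lpl (−1.29). That of Star turned under quantile normalization (−0.047) and median scaling (−0.033), and without 1 mouse Lpl ranged from −0.038 to 0.23. The 5 genes chosen because a transcript moved and the sum did not are descriptive. Their sums, near 0, took the other sign in 38 of 105 values under the alternatives, by at most 0.23, and none of the 105 passed the test. That they be labelled by their spread and not by their sign was decided after these values were seen. No paired analysis was possible because replicate numbers follow the order of deposit and pair no mice. Depth limits the lowest genes, and 1 FPKM over 1 kb stood for at least 70.7 reads.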
